A study of Homo sapiens with 4 samples.

Results

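The replication-dependent histone genes were followed over 4 whole-transcript arrays of MV4-11, an established cell line from a human monocytic acute myeloid leukaemia. Members were the probe sets whose listed symbols are all histone genes of the H1-1 to H1-5, H2AC, H2BC, H3C or H4C series, pseudogenes left out. This rule uses names alone and found 69 of the 53617 probe sets in the table. Of these, 2 repeat the values of another member on all 4 arrays and were counted once, which left 67 distinct members that name 68 genes. The set holds the linker histone H1 as well as the core histones, so it is wider than a core histone family. The clustered genes H1-6 and H3-4 bear names outside these series, were left out, and read below the table median on all 4 arrays. By class there are 5 probe sets of H1, 16 of H2A, 20 of H2B, 11 of H3 and 14 of H4, and 1 that lists both H2A and H3 genes. Only 29 name a single gene. The other 38 are shared, with up to 14 symbols each, and members that share symbols may read the same RNAs.

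Each group is 1 array. The control cells carried a hairpin against luciferase, and the other 3 groups carried hairpins against RUNX1, a transcription factor of blood development, labelled moderate, profound 1 and profound 2. Every group, the control included, was transduced and then kept in 3 µM doxycycline for 24 h. The description fields of profound 1 and profound 2 name RUNX2 and RUNX3 instead, and the groups follow the genotype field. With 1 array per group there is no replicate error, no test was made, and the hairpin, the culture and the array cannot be told apart. All values below are limited in precision by how few arrays there are.

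Histones package DNA into nucleosomes. A nucleosome core is built from H2A, H2B, H3 and H4, and H1 binds the linker DNA between cores. Replication-dependent histone genes lie in clusters and are transcribed in S phase, when cyclin E and CDK2 activate their coactivator NPAT. Their messages usually end in a stem-loop bound by SLBP in place of a poly(A) tail, although a few of these genes also give polyadenylated messages. The labels name a whole-transcript labelling kit, which does not depend on a poly(A) tail.

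Promoter sequences show what the genes share apart from their signals. RefSeq promoter windows (GRCh38.p14) were found for 63 of the 68 genes, 67 windows in all because some genes have more than 1. The 250 bases before each start site were searched on both strands for 4 motifs. These were TATAAA (the TATA box), CCAAT (the CCAAT box), the octamer bound by POU factors (ATTTGCAT) and GGGCGG (the GC box). The windows below were chosen because they set H2B genes that were lower in profound 1 (H2BC17 and H2BC14) beside H2B genes that were not lower by 1.5-fold (H2BC12 and H2BC21), with the linker gene H1-5 as a contrast of class. Each is the 120 bases before the start, 5′ to 3′ on the gene's strand, with matches to any of the 4 motifs in capitals. Matches further upstream are not shown. In the 250 bases searched, H2BC17, H2BC14, H2BC12 and H2BC21 all held the TATA box, the CCAAT box and the octamer. Within the 120 bases printed, H2BC17 held neither the TATA box nor the octamer, and H2BC14 held no TATA box. H2BC12 and H2BC21 held all of these motifs there. The printed windows lie at chr6:27893305-27893424 (plus strand) for H2BC17, chr6:27814902-27815021 (plus) for H2BC14, chr6:27146859-27146978 (minus) for H2BC12, chr1:149886683-149886802 (minus) for H2BC21 and chr6:27867589-27867708 (minus) for H1-5.
H2BC17: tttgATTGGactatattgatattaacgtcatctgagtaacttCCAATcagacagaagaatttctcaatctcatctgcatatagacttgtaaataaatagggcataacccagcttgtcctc
H2BC14: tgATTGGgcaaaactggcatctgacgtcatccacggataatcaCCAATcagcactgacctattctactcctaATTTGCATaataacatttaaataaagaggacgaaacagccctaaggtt
H2BC12: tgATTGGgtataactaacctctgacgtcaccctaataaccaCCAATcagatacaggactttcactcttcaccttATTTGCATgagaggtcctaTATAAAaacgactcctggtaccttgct
H2BC21: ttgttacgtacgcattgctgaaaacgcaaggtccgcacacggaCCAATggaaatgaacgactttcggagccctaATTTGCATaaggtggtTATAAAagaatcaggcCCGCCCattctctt
H1-5: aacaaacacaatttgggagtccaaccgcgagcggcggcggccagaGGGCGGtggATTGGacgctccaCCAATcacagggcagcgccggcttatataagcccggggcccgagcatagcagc

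The classes differed in these motifs. CCAAT stood in all windows of H1 (5), H2A (16), H2B (20) and H3 (13) but in 3 of 13 H4 windows, where 32.0% of the 35116 promoters in the table hold it. The octamer stood in 15 of 20 H2B and 11 of 16 H2A windows, in 1 of 13 H3 windows and in none of the H1 and H4 windows, against 1.63% of all promoters. The TATA box stood in 45 of 67 histone windows (67.2%) against 10.7% of all promoters. GC boxes stood in 8 of 13 H4 windows and 1 of 20 H2B windows, against 42.6% of all promoters. Divergent H2A and H2B genes can share a window, so the windows are not independent. A match is a description of the letters and not a shown site.

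Array medians lay between 3.07 and 3.09 on the log2 scale. A probe set was compared further when its mean over the 4 arrays exceeded the table median of 3.08, which 15749 probe sets with a listed gene and 57 of the 67 histone members did. A difference of at least 1.5-fold (0.58 log2 units) was counted. The spread of the moderate array about control, taken as a robust SD within 6 classes of level, was 0.11 to 0.23 log2 units at the members' levels and served as a yardstick. That yardstick holds noise and real differences together. The RUNX1 probe set, which also lists LOC100506403, read 4.27 in control, 4.33 in moderate, 4.07 in profound 1 and 4.04 in profound 2. It does not show a graded knockdown, so the arrays are named by their labels. Of 11 measured markers of myeloid cells and of this line, 10 passed the filter, with LYZ the brightest (11.34 to 11.57) and CD14 below the table median (2.10 to 2.33). The mean of each of the 3 T cell, 2 erythroid and 3 epithelial markers measured was below it. The fibroblast marker COL1A1 read 3.39 to 3.62 and DCN was below the median. The B cell marker MS4A1 was below it as well, but CD79A read 4.20 in control, 4.64 in moderate, 4.80 in profound 1 and 4.12 in profound 2. CD79A was thus highest in profound 1, where it was above control by 0.60 and above profound 2 by 0.69. The monocyte and macrophage marker CD68 read 9.28 in control, 9.14 in moderate, 9.98 in profound 1 and 9.91 in profound 2, high in both arrays labelled profound. The part of these markers in the histone result was not tested.

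Histone signals were lower in profound 1 than in the other arrays. Of the 57 members, 31 (54.4%) were at least 1.5-fold lower there than in control and 0 were higher by that size. Over all tested probe sets 4.06% were lower and 2.9% higher. The median member differed by -0.73 log2 units, a signal 1.65-fold lower, beside a median of 0.00 over all tested probe sets. At 2-fold, 9 members were lower, where the share over all probe sets was 0.54%. The difference exceeded the yardstick downward in 49 of 57 members and upward in 3 of 57. Of all tested probe sets 25.4% did so downward and 25.4% upward. In moderate 19 of 57 members were lower and 6 of 57 higher by that measure, against 15.2% and 18.2% of all tested probe sets. The yardstick is the spread of moderate about control itself, so these 2 shares are largely set by how it was made. In profound 2 the counts were 18 of 57 and 7 of 57, against 19.6% and 18.7%. By this measure more members were thus lower than higher in these arrays as well. The members that name 1 gene did not show this in profound 2. Of those 22, 8 were below control and 14 above it there, by any size, with a median of 0.04. Of the 35 shared members, 28 were below and 7 above. In moderate 15 of the 22 were below control and 7 above it. In bulk RNA, fewer cells in S phase and less histone RNA per cell cannot be told apart.

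The array labelled profound 2 did not show a difference of the size seen in profound 1. There, 1 of 57 members was 1.5-fold lower than control and 0 were higher, against 1.38% and 1.45% of all tested probe sets, and the median member differed by -0.08 log2 units. At 2-fold, 0 members were lower, against 0.0762% of all tested probe sets. In moderate, 3 members were lower and 0 higher, against 0.781% and 1.06% of all tested probe sets, and the median was -0.08 as well. Set directly against profound 2, profound 1 had 28 of 57 members 1.5-fold lower and 0 higher, where 3.07% and 2.51% of all tested probe sets were. At 2-fold, 5 members were lower, against 0.311%. The median of that difference was -0.58. These comparisons share arrays and are not independent of each other.

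Profound 1 was the lowest of the 4 arrays in 49 of 57 members (86.0%), where it was the lowest in 31.2% of all tested probe sets. In 24 members it was at least 1.5-fold below each of the other 3 arrays, against 1.45% of all tested probe sets. The control array was the highest in 29 members (50.9%), against 22.3% of all tested probe sets. Leaving profound 1 aside, the other 3 arrays spanned a median of 0.19 log2 units within a member, and profound 1 lay a median of 0.52 below the lowest of them. The plot of array profiles shows this for each class.

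**Figure D1:**
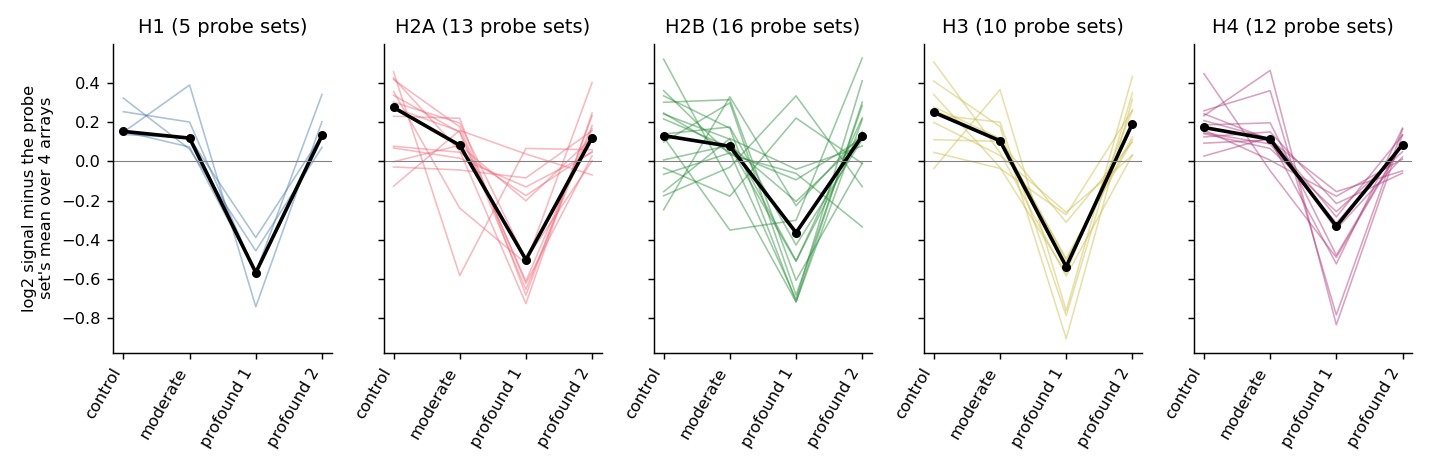
Signal of each histone probe set in the 4 arrays (x axis), as log2 signal minus that probe set's mean over the arrays (y axis), in 1 panel per class, with members as thin lines and the class median as black points. In H1, H3 and H4 every member that passed the filter was lowest in profound 1, and in H2B 10 of 16 were. Only members that passed the filter are drawn, and the probe set that lists both H2A and H3 genes is left out.

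The linker histones were lower together in profound 1. H1-4, a major somatic H1, read 10.75 in control, 10.73 in moderate, 10.22 in profound 1 and 10.74 in profound 2. Profound 1 stood apart at the low end and the other 3 arrays lay within 0.02 of each other, but its difference from control of -0.53 fell short of 1.5-fold. H1-5 read 9.85, 9.79, 9.02 and 9.71 in the same order of arrays, a difference of -0.83 from control in profound 1. H1-2 read 8.26, 8.00, 7.48 and 8.01, with profound 1 lowest (-0.78) and control highest. H1-3 read 3.41 in control, 3.65 in moderate, 2.52 in profound 1 and 3.46 in profound 2. H1-1 (-0.72 in profound 1) and H1-3 (-0.89) read below the table median in that array, so these are differences of dim probe sets. In all, 4 of 5 H1 members reached 1.5-fold below control in profound 1, with a median of -0.78. None did in moderate (median -0.05) or profound 2 (-0.01).

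Among H2A members, 7 of 13 were 1.5-fold lower in profound 1, with a median of -0.80. The probe set shared by H2AC4 and H2AC8 that lists H2AC4 first (17016366) read 8.06 in control, 7.69 in moderate, 6.91 in profound 1 and 7.88 in profound 2, and its difference of -1.15 was the lowest of the class. A second probe set of the same genes (17005589) differed by -0.89. H2AC21 read 10.78, 10.67, 9.98 and 10.48, so that profound 1 was lowest (-0.80) and profound 2 was next (-0.30). H2AC14 read 6.70 in control, 6.69 in moderate, 5.79 in profound 1 and 6.70 in profound 2. Here 3 arrays lay within 0.02 of each other and profound 1 differed from control by -0.91.

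The 2 brightest H2A probe sets differed less in profound 1. The probe set shared by H2AC18 and H2AC19 (16670383) read 11.54 in control, 11.51 in moderate, 11.29 in profound 1 and 11.51 in profound 2. H2AC20 read 11.28, 11.23, 11.08 and 11.26. Profound 1 was still the lowest array in both, with differences of -0.25 and -0.20. The other probe set of H2AC18 and H2AC19 (16692620) was dim and ran the other way, at 4.26, 4.54, 4.42 and 4.31.

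H2AC1, an H2A gene known from the testis, departed from the class. It read 4.89 in control, 3.85 in moderate, 4.50 in profound 1 and 4.50 in profound 2. The array labelled moderate was lowest (-1.04), and it was the 1 member 2-fold lower in that comparison, against 0.0571% of all tested probe sets. The 6-symbol probe set that lists H2AC15 first (17016496) was also lower in moderate. It read 7.27 in control, 6.68 in moderate, 6.39 in profound 1 and 7.32 in profound 2, so moderate and profound 1 were low and control and profound 2 were high. Another probe set of the same 6 genes, listing H2AC17 first (17016512), differed from control by -0.24 in moderate, -1.04 in profound 1 and -0.39 in profound 2. The 4 probe sets of these 6 genes that passed the filter disagreed in size, from -0.06 to -1.04 in profound 1, and 3 of 4 were 1.5-fold lower.

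In profound 1, 7 of 16 H2B members were 1.5-fold lower than control and the median was -0.50, with a range from -1.24 to 0.51. H2BC17 read 5.48 in control, 4.85 in moderate, 4.24 in profound 1 and 5.26 in profound 2. Its differences from control were -0.63 in moderate and -1.24 in profound 1, the lowest of the class in both. H2BC13 differed by -0.78 in profound 1. H2BC14 read 11.19, 11.04, 10.46 and 11.19, so control and profound 2 were equal to the second decimal and profound 1 differed by -0.73. H2BC3 read 5.63 in control, 5.43 in moderate, 4.68 in profound 1 and 5.80 in profound 2, where profound 2 was the highest array and profound 1 the lowest, a difference of -1.12 between them.

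H2BC12, H2BC21, H2AC6 and H2BC5 were listed together as histone genes with polyadenylated messages, after their values were seen. The small size of their differences from control in profound 1 is therefore no result. Other members differed as little there, such as H2BC15 (0.02) and the 6-symbol probe set 17005787 (-0.06). Polyadenylation was not measured. H2BC12 read 7.91 in control, 8.18 in moderate, 8.02 in profound 1 and 8.14 in profound 2. Control was the lowest array for this gene and all 3 RUNX1 hairpin arrays were above it, by 0.27, 0.11 and 0.23. H2BC21 read 4.72, 4.83, 4.69 and 4.90. H2AC6 read 5.52 in control, 5.60 in moderate, 5.32 in profound 1 and 5.64 in profound 2. H2BC5 read 3.85, 3.93, 3.64 and 3.96. The last 3 were lowest in profound 1. H2AC6 was below control there by more than the yardstick (-0.20), as were 25.4% of all tested probe sets. Against profound 2, all 4 were lower in profound 1, by differences from -0.32 (H2AC6 and H2BC5) to -0.12 (H2BC12), each short of 1.5-fold. Over all tested probe sets the robust SD of that comparison was 0.26 log2 units.

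The remaining H2B members varied in pattern. The 5-symbol probe set that lists H2BC4 first (17016379) read 3.97 in control, 4.11 in moderate, 4.48 in profound 1 and 4.01 in profound 2, highest in profound 1. Its companion 17005578, which lists the same 5 genes, read 7.26, 7.09, 6.20 and 7.13 and differed from control by -1.05 in profound 1. Over the 5 probe sets of these genes the difference in profound 1 ran from -1.05 to 0.51, so their signals do not give 1 direction. The probe set of this family that lists H2BC8 first (17016390) read 5.14, 4.82, 4.72 and 4.45, and its -0.70 in profound 2 was the 1 difference of 1.5-fold in that comparison. H2BC9 read 5.01 in control, 4.54 in moderate, 4.59 in profound 1 and 5.42 in profound 2. H2BC15 read 3.63 in control, 4.21 in moderate, 3.65 in profound 1 and 4.02 in profound 2, with control and profound 1 at the low end. H2BC18 (16692603) read 4.59, 4.45, 4.85 and 4.62, highest in profound 1.

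Every H3 member that passed the filter was below control in profound 1. Of 10, 7 were 1.5-fold lower and the median was -0.77. The probe set that lists H3C8 first (17016403) read 8.87 in control, 8.64 in moderate, 7.55 in profound 1 and 8.78 in profound 2. Its difference of -1.31, a signal 2.49-fold lower, was the lowest of all histone members. The one that lists H3C7 first (17016400) read 9.50, 9.46, 8.48 and 9.61, and the one that lists H3C2 first (17016363) read 7.40, 6.93, 6.30 and 6.92. In the former the other 3 arrays lay together, and in the latter control stood above all others, with differences of -0.46 in moderate and -0.48 in profound 2. The brightest, which lists H3C11 first (17016503), read 11.41, 11.40, 10.98 and 11.39.

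The H3 probe sets differed in how moderate and profound 2 lay. The one that lists H3C10 first (17005862) read 5.02 in control, 5.43 in moderate, 4.30 in profound 1 and 5.49 in profound 2, so moderate and profound 2 were above control and profound 1 below it. H3C13, the single H3 gene with a probe set of its own, read 7.15, 7.07, 6.83 and 7.37, a difference of -0.32 in profound 1. The probe set that H3C13 shares with H3C14 and H3C15 (16670387) differed by -0.76. The 8 probe sets that list the same 10 H3 genes and passed the filter ranged from -1.31 to -0.42 in profound 1, and another below the filter (17005539) was at -0.52.

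All 12 H4 members that passed the filter list the same 14 genes, and each was lowest in profound 1. The brightest (17005868 and 17016494, both listing H4C11 first) read 11.69 and 11.66 in control, 11.61 and 11.60 in moderate, 11.29 and 11.20 in profound 1, and 11.60 and 11.59 in profound 2. Their differences in profound 1 were -0.40 and -0.46. The probe set that lists H4C2 first (17016360) read 4.40, 4.63, 3.33 and 4.30, a difference of -1.07, and the one that lists H4C1 first (17005535) read 7.10, 7.20, 6.05 and 7.00. In these 2 moderate was the highest array. A dim one (17005790) read 3.64 in control, 3.15 in moderate, 2.70 in profound 1 and 3.28 in profound 2, with control above the rest. In all, 5 of 12 were 1.5-fold lower in profound 1 and the median was -0.51. H4C7, the 1 H4 gene with a probe set of its own, stayed below the filter (1.05 to 1.38).

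**Figure D2:**
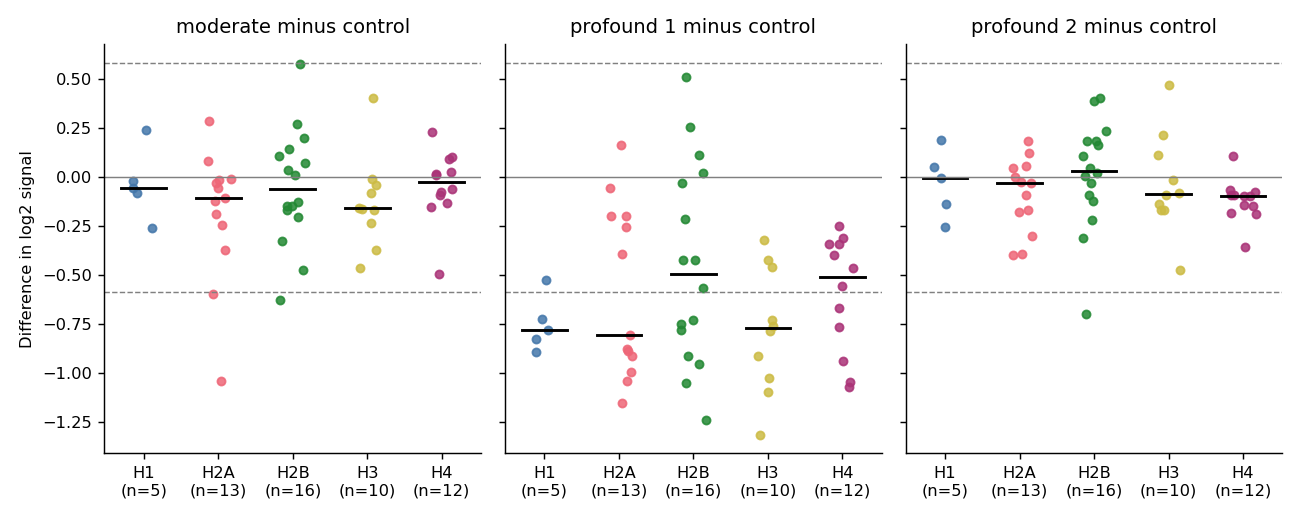
Difference in log2 signal from the control array (y axis) for the histone probe sets that passed the filter, by class (x axis), in 1 panel for each RUNX1 hairpin; black bars are class medians and dashed lines mark 1.5-fold. The probe set that lists both H2A and H3 genes is not drawn. In profound 1 the class medians lie between -0.80 (H2A) and -0.50 (H2B), and in moderate and profound 2 between -0.16 and 0.03.

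The class medians in profound 1 were thus -0.78 for H1, -0.80 for H2A, -0.50 for H2B, -0.77 for H3 and -0.51 for H4. The class counts above stand beside 4.06% of all tested probe sets that were 1.5-fold lower there. The members within H2A and H2B spread over more than 1 log2 unit, so an order of the classes cannot be read from these medians. Without the filter on level, the H2A median became -0.39, which puts H2A among the smaller ones. Against control, profound 2 gave class medians from -0.10 (H4) to 0.03 (H2B) and moderate from -0.16 (H3) to -0.02 (H4). The 10 members below the filter had a median of -0.19 in profound 1, with 1 of 10 at 1.5-fold lower. No share over all probe sets below the filter was taken, so this count has no background beside it.

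The genes fall into clusters named in their older symbols. Of 36 members whose genes all lie in the HIST1 cluster, 23 were 1.5-fold lower in profound 1, against 4.06% of all tested probe sets. The median of the 36 was -0.78. Of 8 members of the HIST2 cluster, 2 were 1.5-fold lower, H2AC21 and the probe set shared by H3C13, H3C14 and H3C15. The median of the 8 was -0.23. The HIST2 members include H2AC20, H2AC18/H2AC19 and H2BC21, described above. Most HIST2 members were dim or among the brightest, so the clusters were not compared at like levels. The 1 HIST3 member that passed, H2BC26, read 6.59 in control, 6.46 in moderate, 5.84 in profound 1 and 6.50 in profound 2. The 12 H4 probe sets list genes of 3 clusters and cannot be assigned.

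The counts were also taken by signal level and by gene specificity. In profound 1, 5 of 18 members with a mean signal up to 5 were 1.5-fold lower, 13 of 16 between 5 and 7, 6 of 9 between 7 and 9, and 7 of 14 above 9. Over all tested probe sets of the same bands the shares were 2.84%, 4.60%, 5.65% and 4.18%. The members' shares were 27.8%, 81.2%, 66.7% and 50.0%. Of 22 members that name 1 gene, 11 were 1.5-fold lower (median -0.62), and of 35 shared members 20 were (median -0.76).

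**Figure D3:**
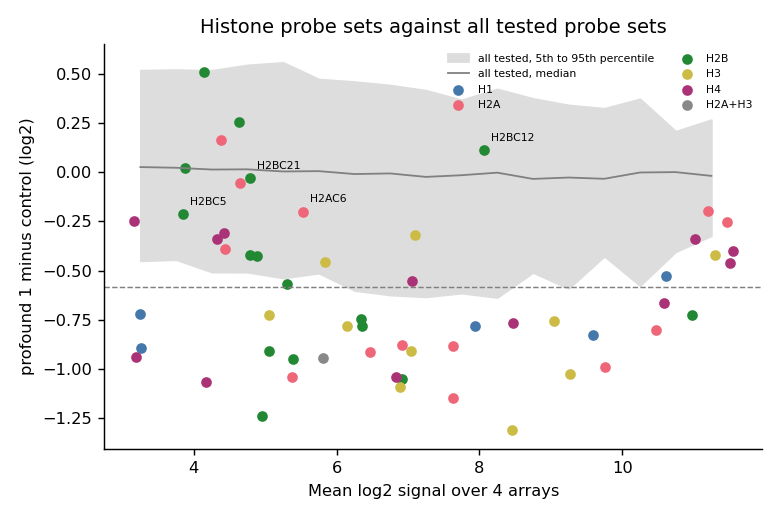
Difference between profound 1 and control in log2 units (y axis) against mean log2 signal over the 4 arrays (x axis) for the histone probe sets, coloured by class; the grey band spans the 5th to 95th percentile of all tested probe sets in bins of mean level and the dashed line marks 1.5-fold lower. Members below the band occur across the range of signal, and the labelled H2BC12, H2BC21, H2BC5 and H2AC6 lie inside it.

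The genes that control histone messages were examined next, from a list chosen, like the lists that follow, with earlier results known. Of 17 measured, 3 were 1.5-fold lower in profound 1 and 0 higher, against 4.06% and 2.9% of all tested probe sets. The median of the 17 was -0.27. The 3 lower genes are those of the kinase module that activates NPAT. The cyclin gene CCNE2 read 7.97 in control, 7.45 in moderate, 6.41 in profound 1 and 7.94 in profound 2. CCNE1, its paralogue, read 8.15, 7.80, 7.18 and 7.94, and their kinase gene CDK2 read 7.34, 7.26, 6.63 and 7.17. SLBP, the stem-loop binding protein gene, read 9.31 in control, 9.17 in moderate, 8.75 in profound 1 and 9.12 in profound 2. Its difference of -0.57 was just short of 1.5-fold, as were those of CASP8AP2 (-0.55), which acts in histone gene expression and message processing, and ERI1 (-0.54), which trims histone message ends. NPAT differed by -0.47. The cleavage and polyadenylation genes lay on both sides of control, CPSF3 (0.05) and SYMPK (0.20) above it and CPSF2 (-0.16) and CSTF2 (-0.31) below it. So did the genes of the U7 particle, LSM11 (0.40) above and LSM10 (-0.27) below. In moderate and profound 2, 0 of the 17 were at 1.5-fold, with medians of -0.10 and -0.06. Of all tested probe sets, 0.781% and 1.38% were lower and 1.06% and 1.45% higher by that size.

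Histone variants outside the clusters were lower in part. Of 8 with a probe set of their own, 2 were 1.5-fold lower in profound 1, H2AX (8.06 in control, 7.83 in moderate, 7.26 in profound 1 and 7.60 in profound 2) and MACROH2A2. Of all tested probe sets, 4.06% were lower by that size. H2AX carries the phosphorylation that marks DNA breaks. MACROH2A2 read 6.22, 6.24, 5.50 and 5.57, so both arrays labelled profound were low. It was the 1 variant at 1.5-fold in profound 2 (-0.65), where 1.38% of all tested probe sets were lower by that size. H3-5 was higher by 0.64 in profound 1, but read 2.85 in control, below the table median. H3-3A and H3-3B, which encode the replacement histone H3.3, have shared probe sets alone and are outside these 8. The brightest of the 3 (16887898, which also lists H3P6) read 10.44 in control, 10.48 in moderate, 10.55 in profound 1 and 10.45 in profound 2. The next (16848888) read 8.23, 8.44, 8.60 and 8.41, and the dimmest (16678128) read 4.23, 4.19, 4.15 and 4.11. Profound 1 was thus the highest array in the brighter pair and not in the dimmest. H2AZ1 was at -0.47 and the linker variant H1-10 at -0.42 in profound 1.

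Among histone chaperones, 4 of 19 were 1.5-fold lower in profound 1 and 0 higher, against 4.06% and 2.9% of all tested probe sets. The median of the 19 was -0.24. CHAF1B, a subunit of the assembly factor CAF-1 at replication forks, read 7.68 in control, 7.56 in moderate, 6.73 in profound 1 and 7.56 in profound 2. ASF1B, which hands new H3 and H4 to CAF-1, read 8.11, 7.99, 7.19 and 8.06. The others were HJURP, the chaperone of the centromeric H3 variant (-0.79), and TONSL (-0.68). CHAF1A (-0.58) was at the edge of the size counted and NASP, which holds H3 and H4 pools, was at -0.52. The HIRA-pathway genes UBN1 (-0.11) and CABIN1 (-0.12) and the FACT subunit genes SSRP1 (-0.12) and SUPT16H (-0.24) differed less. In moderate and profound 2, 0 of 19 were at 1.5-fold, where 0.781% and 1.38% of all tested probe sets were lower by that size.

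DNA replication genes had a difference of like size to the histones. Their list was chosen with earlier results of these data known, so this likeness is a description alone. Of 23 measured, 18 were 1.5-fold lower in profound 1 and 0 higher, against 4.06% and 2.9% of all tested probe sets. The median of the 23 was -0.74 beside -0.73 for the histone members. CDC6, which loads the replicative helicase, read 8.03, 7.60, 6.74 and 7.91, and GINS2, a helicase component, read 7.62, 7.45, 6.43 and 7.44. TYMS, which makes thymidylate, read 9.11 in control, 9.01 in moderate, 8.02 in profound 1 and 9.02 in profound 2. In profound 2 and moderate 0 of 23 were at 1.5-fold, with medians of -0.14 and -0.17. Of all tested probe sets, 1.38% and 0.781% were lower by that size. The part of these genes' lower level in the histone result was not tested.

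**Figure D4:**
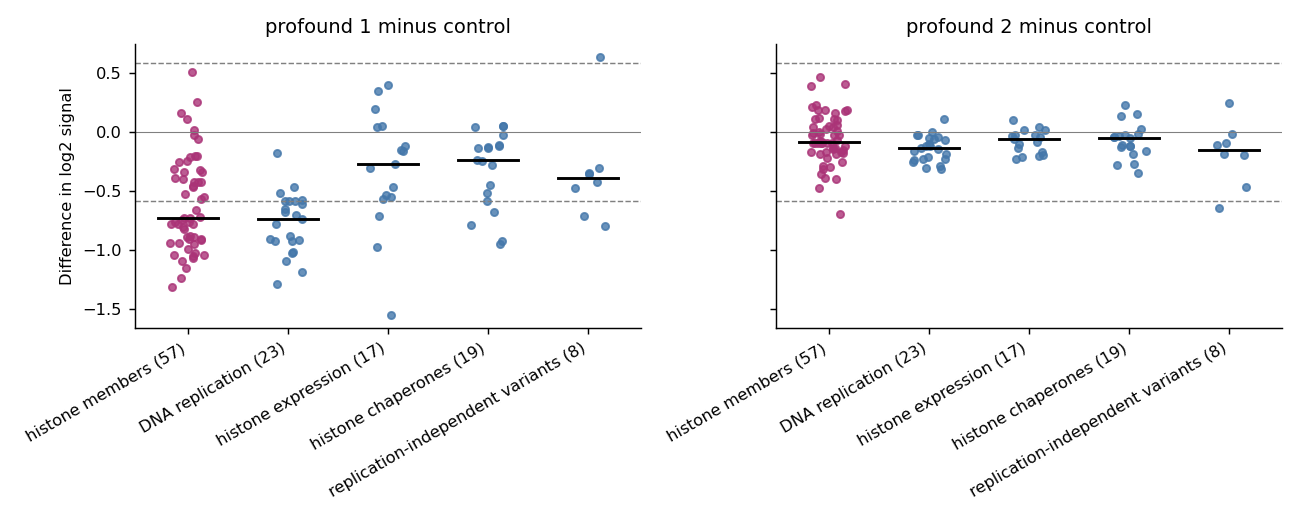
Difference in log2 signal from control (y axis) for the 57 histone members and for 4 lists of related genes (x axis, number measured in brackets), in profound 1 (left) and profound 2 (right); bars are medians and dashed lines mark 1.5-fold. In profound 1 the medians of the histone members (-0.73) and of the DNA replication genes (-0.74) lie below the 1.5-fold line, and in profound 2 all medians lie between -0.15 and -0.05.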

How the data were processed

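RNA of 4 cultures was read on 4 arrays, 1 per group. The deposited table holds log2 signals. The submitters' processing notes name RMA, Affymetrix Expression Console (1.3.1) and Transcriptome Analysis Console (1.0) as the authors' tools. RMA subtracts background, gives all arrays 1 distribution by quantiles and summarises each probe set, so a shift of most genes cannot be seen, and dim or saturated probe sets can understate differences. Its settings are not stated, and the genome build is not given in the sources used here. Every value column was used (0 unused).

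Symbols came from the platform annotation, as listed. It names a gene for 25713 probe sets, 1842 of them with several. Biotypes, cluster names and promoters came from RefSeq tables (GRCh38.p14). Probe sets with equal symbols and equal values counted once. Of the other lists' genes, the probe set with 1 symbol and the highest mean was used. Differences were counted at 1.5-fold and 2-fold with Python 3.11.15 and pandas 2.3.3, and the counting was checked on simulated data. Named members are the 2 brightest of a class and the 5 largest differences each way of a comparison, with a few chosen after their values were seen (H2BC21, H2BC5, H2AC6, H2BC13, H2BC26, H2AC14 and others given as contrasts). The members and lists were chosen with earlier results of these data known. Alternatives were other filters, cyclic loess (limma 3.58.1), median centring, 1-gene probe sets, averaging and 2-fold. A background of protein-coding probe sets was added after seeing the data.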

Additional observations from a re-analysis of the deposited data

How the results depend on the processing

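No paired analysis was possible because each group is 1 array, and for the same reason no array could be left out. Over all alternatives the median difference of the members stayed between -0.78 and -0.56 in profound 1 against control, between -0.62 and -0.53 against profound 2 and between -0.11 and -0.07 in moderate. In profound 2 it ran from -0.09 to 0.04. Of 256 values recomputed, 231 kept their size within the yardstick (0.17 log2 units, or 1.5 times for a count or share) and 25 did not, and the cause was not tested beyond the fewer or dimmer members compared. Cyclic loess and median centring moved none of them. Member counts were compared as numbers and not as shares. In profound 1, 11 of 22 with 1-gene probe sets was therefore counted as moved beside 31 of 57. The 4 values moved at 2-fold set a count at 2-fold beside a count at 1.5-fold.

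At 2-fold, the members lower than control numbered 1 in moderate, 9 in profound 1 and 0 in profound 2, and 5 were lower in profound 1 than in profound 2. With probe sets of the same symbols averaged, 17 of 30 were lower in profound 1, 0 in profound 2 and 15 in profound 1 against profound 2, and the H2A median in profound 1 was -0.57. With probe sets of 1 gene alone, 11 were lower in profound 1, 0 in profound 2 and 10 against profound 2, of 22. Under the 75th-percentile filter, 1 was lower in moderate and 0 in profound 2, of 39. Shares over all probe sets were not retaken with averaging, with 1-gene probe sets or under this filter, so these counts have no background of their own. In profound 1 against control, the H2A median was -0.60 when 1 array had to exceed the table median, -0.39 without a filter, -0.39 with 1-gene probe sets and -0.58 as a mean. The H3 median was -0.32 and, in profound 2, 0.22 with 1-gene probe sets (1 member). The H2B median was -0.77 under the 75th-percentile filter, and that of all members -0.56 without a filter. Against profound 2, the H2A median was -0.72 under the 75th-percentile filter and -0.32 with 1-gene probe sets, and the H2B median was -0.35 without a filter. Among protein-coding probe sets alone, 4.08% were 1.5-fold lower in profound 1, beside 4.06% of all tested, and 0.438% in moderate, beside 0.781%.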
